A study of Mus musculus with 9 samples.

Results

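The genes described here are 10 members of the first steps of interferon signalling, namely the ligands Ifnb1, Ifna4 and Ifng, the receptor chains Ifnar1, Ifnar2, Ifngr1 and Ifngr2, the kinases Jak1 and Tyk2 and the inhibitor Socs1. They were chosen by name for their role, and all 10 are among the 37316 genes named on the array. The members and the gene lists set beside them were chosen with earlier results of these data known. Counts over them are therefore a description. Their expression was measured in mature megakaryocytes (mMKs) of the bone marrow of male mice, in 3 groups of 3 arrays. Mice had a single 5 Gy dose of γ-rays from a 60Co source to the whole body and were sampled at 1 or 3 days post irradiation (dpi), while control mice (Ctrl) were sham-irradiated. The methods give the wild-type mice as C57BL/6 and describe enrichment of mMKs by positive selection for CD41 and then for CD42d. The sample records speak of sorted mMKs, and the age of these mice is not given in the sources used here. The submitters state 3 independent experiments per time with other donors in each, and whether an experiment spanned the groups is not stated.

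Type I interferons, which include interferon-β and the interferon-α family, bind a receptor made of the chains IFNAR1 and IFNAR2, whereas interferon-γ, the type II interferon made mainly by T and NK cells, binds IFNGR1 and IFNGR2. TYK2 and JAK1 sit on the type I receptor and JAK1 and JAK2 on the type II receptor, and they phosphorylate STAT proteins that switch on interferon-stimulated genes. SOCS1 is itself induced by this signal and blocks the kinases.

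Each value is a log2 intensity from which the array's 75th percentile was subtracted, so that 0 lies at this percentile. The scaling matters here, because the 1 dpi arrays were dimmer as a whole. Their 75th percentile lay between 9.33 and 9.45 on the log2 scale, against 10.03 to 10.66 in Ctrl and 10.37 to 10.55 at 3 dpi. After scaling, the middle of the log2 fold changes of all 29410 genes tested, their median, lay at 0.25 for 1 dpi and 0.11 for 3 dpi relative to Ctrl, and at -0.11 for 3 dpi relative to 1 dpi. With the array median as the scale these medians were -0.07, -0.01 and 0.08. To be called, a gene had to change 2-fold or more with an adjusted p below 0.05 in limma. Both comparisons with Ctrl share the same Ctrl arrays.

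Of the 10 members, 9 could be tested because every array of some group showed them well above background, and Ifna4 could not. At 1 dpi 2 members were called, Ifnb1 and Ifng, both higher, where 15.2% of all genes tested were called and 12.3% were called higher. The filter let Ifnb1 in through the irradiated groups alone, as its Ctrl signals were not well above background, which is described below. Its call against Ctrl and its part in the counts are therefore no support for a change. Ifng was well above background in both groups. The median log2 fold change of the 9 tested members was 0.13. At 3 dpi 1 member was called against Ctrl, Ifng, which was higher, beside 8.80% of all genes called and 6.98% called higher, with a median over the members of 0.26. Between 3 and 1 dpi 1 member was called, Ifnb1, which was lower at 3 dpi, beside 8.80% of all genes called and 4.82% called lower, with a median of -0.05. By adjusted p alone the members past the threshold were 5 at 1 dpi, 4 at 3 dpi and 6 between the time points, where 55.9%, 32.0% and 44.6% of all genes passed. The counts of 5 and 4 both include Ifnb1, whose Ctrl signals were not well above background.

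**Figure D1:**
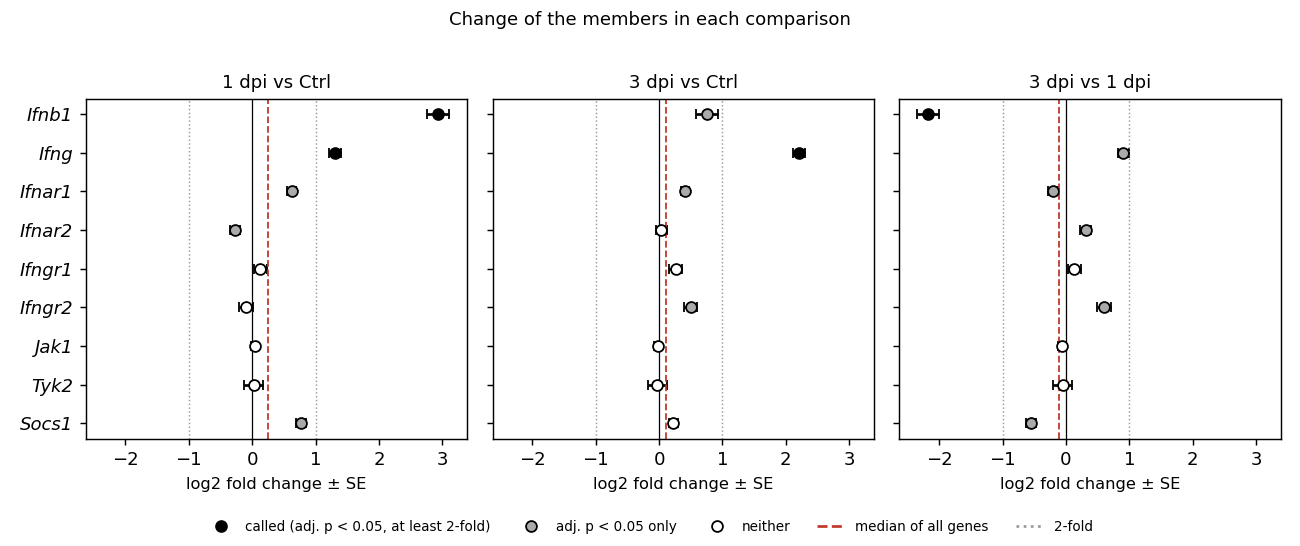
Log2 fold change of each tested member with its standard error (bars) from limma in the 3 comparisons, with the median of all genes as a dashed line and 2-fold changes as dotted lines. Ifnb1, whose Ctrl signals were not well above background, and Ifng lie beyond 2-fold at 1 dpi. Ifng alone does so at 3 dpi against Ctrl. The receptors, kinases and Socs1 lie within 2-fold in each comparison.

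The promoters of the ligands called and of Socs1 are shown because these genes lie at the start and at the end of the loop. Each passed the adjusted p in some comparison, Socs1 without being called. Each is the run of 250 bases before the gene's start on its own strand, from RefSeq on GRCm38.p6, and capitals mark letters that match a searched motif. The motifs, searched on both strands, were the interferon regulatory factor element AANNGAAA, the core of the interferon-stimulated response element, GAAA and GAAA with any 2 bases between, which always contains the former, the γ-activated site TTCNNNGAA and the NF-κB site, GGGAA and CC with any 3 bases between. Of 32851 promoters of this length, 21.3%, 2.98%, 7.02% and 4.94% hold a match to them, in this order.
Ifnb1, chr4:88522795-88523044, minus strand: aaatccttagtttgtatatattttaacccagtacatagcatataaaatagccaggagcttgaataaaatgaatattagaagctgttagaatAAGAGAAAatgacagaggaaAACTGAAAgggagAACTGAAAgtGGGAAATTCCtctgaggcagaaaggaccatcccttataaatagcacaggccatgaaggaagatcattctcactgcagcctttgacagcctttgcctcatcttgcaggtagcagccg
Ifng, chr10:118440796-118441045, plus strand: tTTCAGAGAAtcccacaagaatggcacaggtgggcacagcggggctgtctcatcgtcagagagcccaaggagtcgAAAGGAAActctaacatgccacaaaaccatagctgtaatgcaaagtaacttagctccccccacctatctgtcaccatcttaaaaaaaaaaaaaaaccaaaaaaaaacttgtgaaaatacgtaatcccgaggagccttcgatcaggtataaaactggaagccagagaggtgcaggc
Socs1, chr16:10785537-10785786, minus strand: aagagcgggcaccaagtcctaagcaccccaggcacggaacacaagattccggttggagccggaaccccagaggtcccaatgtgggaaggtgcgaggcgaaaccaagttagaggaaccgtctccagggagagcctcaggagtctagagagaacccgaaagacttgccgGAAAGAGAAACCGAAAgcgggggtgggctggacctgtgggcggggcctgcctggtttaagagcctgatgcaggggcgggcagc
The Ifnb1 run holds 3 matches to AANNGAAA and 1 to the NF-κB letters, GGGAAATTCC, which begins 116 bases before the start. In Ifng there is 1 match to the γ-activated site, 249 to 241 bases before the start, and 1 to AANNGAAA. The Socs1 run holds 2 overlapping matches to the response element core, between 83 and 68 bases before the start. A match describes letters, and binding was not measured here. Ifnar1 and Ifnar2 also passed the adjusted p at 1 dpi and are not shown. Ifnar1 holds 0 matches and Ifnar2 1, to the γ-activated site. Whether matches go with change was not tested. Of all 10 members, 4 hold AANNGAAA, 2 the response element core, which are Ifna4 and Socs1, 2 the γ-activated site and 2 the NF-κB letters.

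Ifnb1, which encodes interferon-β, was dim in every group. Its unscaled intensities were 7.76, 14.5 and 12.8 on the Ctrl arrays, where the lowest signals well above background were 14.1, 15.2 and 13.9. At 1 dpi they were 40.2, 35.6 and 52.2, and at 3 dpi 19.8, 17.3 and 22.5. The probe was thus well above background on 0 of 3 Ctrl arrays and on all 3 arrays of each irradiated group. Every 1 dpi array was brighter than every 3 dpi array, with and without scaling.

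On the scaled log2 scale Ifnb1 was at -7.08, -6.76 and -6.99 in Ctrl, at -4.00, -4.29 and -3.72 at 1 dpi and at -6.06, -6.44 and -6.04 at 3 dpi. Because Ctrl gives only a bound, Ifnb1 was, under this scaling alone, at least 6.02-fold higher at 1 dpi and at least 1.33-fold higher at 3 dpi. The fitted log2 differences from Ctrl, 2.94 and 0.76, and the call at 1 dpi rest on Ctrl signals that were not well above background, so that no p is given for them. On the scaled values 3 dpi replicate 2 lay under the lowest signal well above background of Ctrl replicate 1, at -6.22, so that the order of single arrays of 3 dpi and Ctrl is not settled. The bound sets the mean of the irradiated group against the mean over the Ctrl arrays of the lowest signal well above background, or of the probe's own signal where that was higher. From 1 to 3 dpi, where both groups were measured, Ifnb1 fell by 2.18 on the log2 scale (SE 0.17, limma adjusted p = 9.2e-05). With a normexp background correction and quantile normalization together this difference was -0.67, under 2-fold and not called. With quantile normalization the fitted differences from Ctrl were 2.41 and 0.41, and with a normexp background correction and quantile normalization together they were 0.75 and 0.083, the former under 2-fold. For the fall of 2.18 the exact permutation p was 0.1, the smallest that groups of 3 allow. In bulk RNA of this kind, more RNA per cell and more cells of a type that express the gene cannot be told apart.

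Ifna4, an interferon-α gene, did not stand well above background on any of the 9 arrays, and its highest intensity was 6.51, so that no fold change is given.

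**Figure D2:**
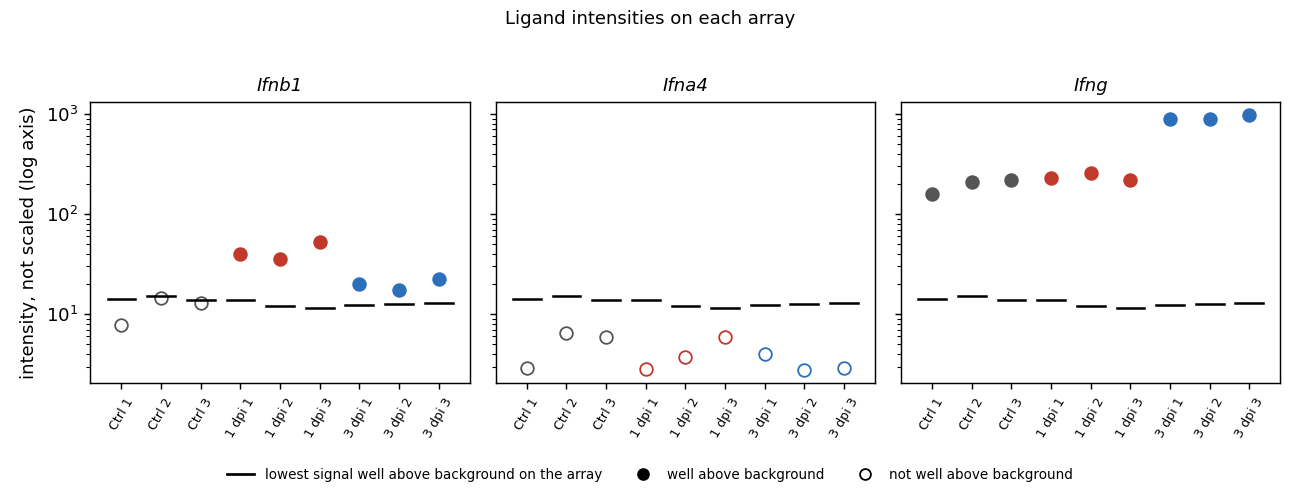
Unscaled intensity of the probes of Ifnb1, Ifna4 and Ifng on each of the 9 arrays (log axis), with a dash at the lowest signal well above background on that array and open circles for signals not well above background. Ifnb1 crosses the dashes only after irradiation, Ifna4 stays under them on all 9 arrays, and Ifng lies above them on all 9.

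Ifng, which encodes interferon-γ, was well above background on all 9 arrays. Its scaled log2 values were -2.72, -2.90 and -2.89 in Ctrl, -1.48, -1.46 and -1.67 at 1 dpi and -0.55, -0.74 and -0.60 at 3 dpi. The groups did not overlap, and their order, Ctrl, 1 dpi and 3 dpi, differed from that of Ifnb1, which was highest at 1 dpi. Ifng was 2.47-fold higher at 1 dpi (log2 fold change 1.30, SE 0.09, limma adjusted p = 2.5e-05) and 4.63-fold higher at 3 dpi (2.21, SE 0.09, limma adjusted p = 1.7e-06) than in Ctrl. Between the time points it was higher at 3 dpi by 0.91 (SE 0.09, limma adjusted p = 2.2e-04), which is under 2-fold.

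The 1 dpi change of Ifng leans on the scaling. Unscaled intensities were 159, 211 and 218 in Ctrl and 230, 255 and 217 at 1 dpi, so that both groups overlapped, while they were 899, 900 and 979 at 3 dpi. With the array median as the scale the log2 fold change at 1 dpi was 0.99 (limma adjusted p = 9.2e-04), just under 2-fold, and that between 3 and 1 dpi passed 2-fold (limma adjusted p = 9.3e-04) and was called. The rise at 3 dpi over Ctrl was then 2.09 and was called.

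Markers of T and NK cells, known sources of interferon-γ, were also called higher after irradiation. Of all genes tested, 12.3% were called higher at 1 dpi and 6.98% at 3 dpi, with medians of 0.25 and 0.11. Of 14 listed genes 13 were tested, as 1 was not found on the array, and 6 were called higher at 1 dpi and 7 at 3 dpi, with medians of 0.87 and 1.13. Among them Il2rb, a chain of the interleukin-2 receptor, rose by 1.37 (SE 0.08, limma adjusted p = 1.4e-05) and 2.46 (SE 0.08, limma adjusted p = 7.6e-07), and Gzma, a granule protease, by 1.19 and 2.23. Cd247, a chain of the T cell receptor complex, rose by 1.83 at 1 dpi (SE 0.17, limma adjusted p = 9.6e-05) and fell by 1.64 from 1 to 3 dpi, so that it did not share the order of Ifng. From 1 to 3 dpi 4 of the 13 were called higher, with Cd3g among them (1.42), and 1 lower. The summed level of the list, as a multiple of the 75th percentile, was 33.7, 35.8 and 33.7 in Ctrl, 54.5, 51.2 and 51.4 at 1 dpi and 46.8, 43.4 and 42.1 at 3 dpi. Most of this sum was Nkg7, the brightest gene of the list, at 27.7 to 29.2 in Ctrl, 37.6 to 40.0 at 1 dpi and 29.0 to 32.9 at 3 dpi. The part of such cells in the Ifng values was not tested. With the array median as the scale 2 of these genes were called at 1 dpi and 7 at 3 dpi.

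Over the 9 arrays the tested genes most like Ifng were Fam20c, Foxc1 and Rarres2, with Pearson r of 0.998, 0.997 and 0.997, as a description of these arrays, which fall into 3 groups. The 3 most like Ifnb1, with r between 0.990 and 0.993, are transcripts for which the array files give no gene symbol, and this r includes Ctrl values of Ifnb1 that were not well above background.

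**Figure D3:**
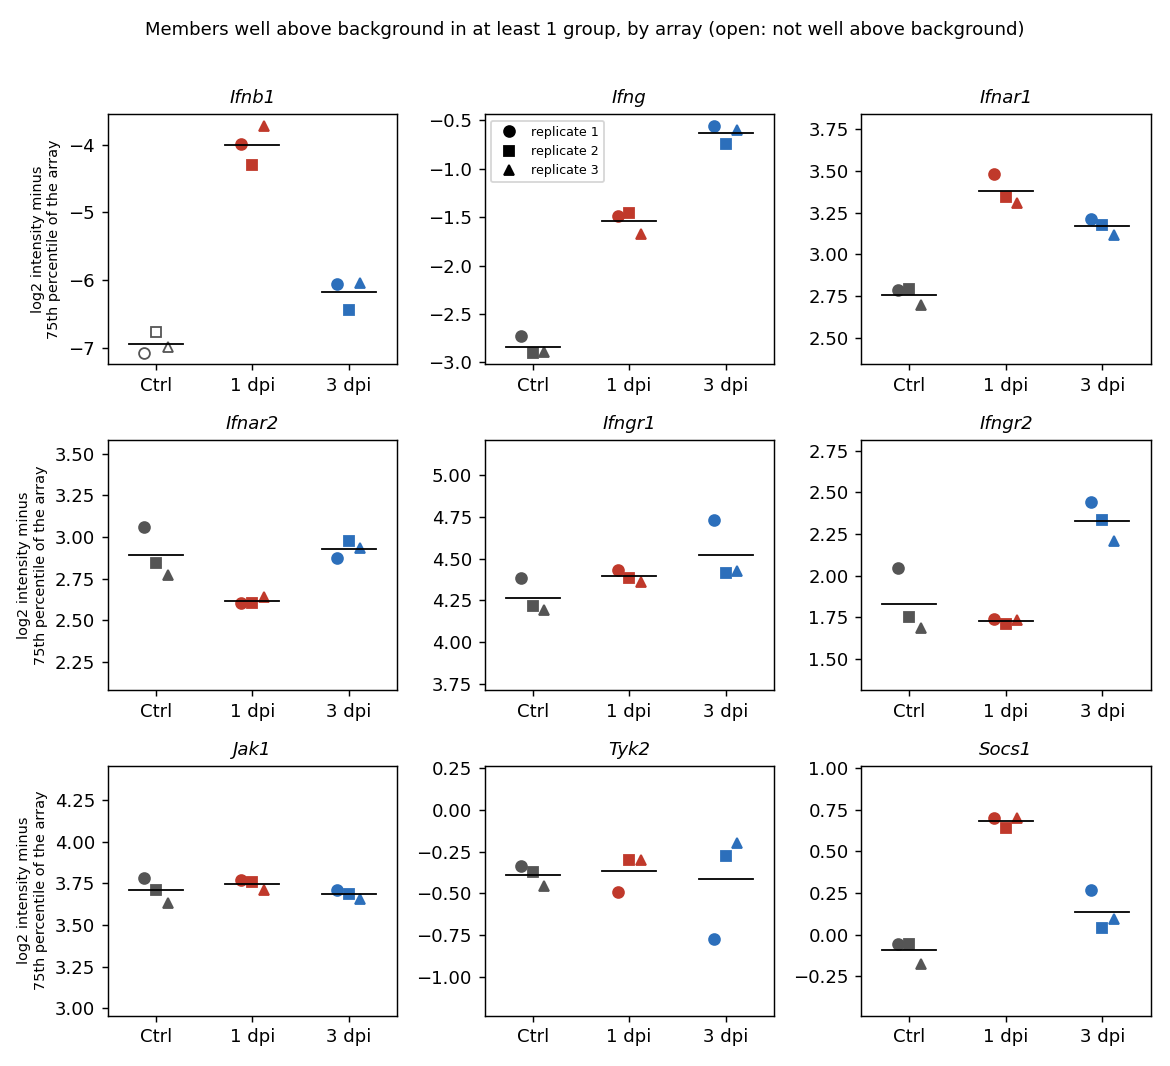
Scaled log2 value of each tested member on each array (points, by replicate) with the group mean (line), each panel with its own axis. Ifnb1 and Socs1 are highest on the 1 dpi arrays, Ifng rises from Ctrl to 1 and 3 dpi, and Jak1 differs little between groups.

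Ifnar1 and Ifnar2 encode the chains of the type I receptor. Ifnar1 was at 2.78, 2.79 and 2.70 in Ctrl, at 3.48, 3.34 and 3.31 at 1 dpi and at 3.21, 3.17 and 3.11 at 3 dpi. The groups did not overlap, and the change was 1.54-fold at 1 dpi (log2 fold change 0.62, SE 0.07, limma adjusted p = 2.5e-04) and 1.33-fold at 3 dpi (0.41, SE 0.07, limma adjusted p = 0.0029), past the p threshold and under 2-fold. Neither passed with the array median as the scale, at 0.31 (limma adjusted p = 0.075) and 0.29 (limma adjusted p = 0.14). Unscaled intensities at 1 dpi, 6810 to 7180, lay under those of Ctrl, 7220 to 10900. The 4 Ifnar1 probes gave different log2 fold changes, 0.62, 0.64, 0.09 and -0.04 at 1 dpi and, in the same order, 0.41, 0.16, -0.24 and 0.22 at 3 dpi. The first stands for the gene, and it and the second passed the adjusted p at 1 dpi, and the first alone at 3 dpi.

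Ifnar2 was at 3.06, 2.85 and 2.77 in Ctrl, at 2.61, 2.61 and 2.64 at 1 dpi and at 2.87, 2.98 and 2.94 at 3 dpi. All 1 dpi arrays lay under all others. The difference was -0.27 at 1 dpi (SE 0.08, limma adjusted p = 0.024), and its other probe gave -0.35 (SE 0.06, limma adjusted p = 0.0019). At 3 dpi it was 0.04 (limma adjusted p = 0.75). Without Ctrl replicate 1, which lies alone on its slide and had the fewest spots well above background, the 1 dpi difference was -0.19, and with the array median as the scale it was -0.59. It did not pass with the methods' two-group test (Benjamini-Hochberg adjusted p = 0.071 against 0.024 with limma) or without any 1 of the 1 dpi arrays.

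Of the interferon-γ receptor, Ifngr1, the ligand-binding chain, was between 4.19 and 4.73 on all 9 arrays, and its log2 fold changes of 0.13 at 1 dpi and 0.26 at 3 dpi did not pass (limma adjusted p = 0.29 and 0.089). The former turned to -0.18 with the array median as the scale. Ifngr2, the signalling chain, was at 2.05, 1.75 and 1.69 in Ctrl, at 1.74, 1.71 and 1.73 at 1 dpi and at 2.44, 2.33 and 2.21 at 3 dpi. Each 3 dpi array lay above each of the others, by 0.50 over Ctrl (SE 0.11, limma adjusted p = 0.0087) and 0.60 over 1 dpi (SE 0.11, limma adjusted p = 0.003). The difference from Ctrl at 3 dpi was 0.38 with the array median as the scale and did not pass (limma adjusted p = 0.17), and that from 1 dpi was 0.79 and passed. At 1 dpi the difference from Ctrl was -0.10 (limma adjusted p = 0.43).

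By the mm9 positions of their probes, 3 of the 4 receptor genes, Ifnar1, Ifnar2 and Ifngr2, share chromosome 16, as does Socs1, and Ifnb1, Ifna4 and Jak1 share chromosome 4.

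Neither kinase passed the test in any comparison, which does not show that their levels were equal. Jak1 was between 3.63 and 3.78 in Ctrl, between 3.71 and 3.77 at 1 dpi and between 3.66 and 3.71 at 3 dpi, with log2 fold changes of 0.04 and -0.02 (SE 0.06 each). Tyk2 had 0.02 and -0.03 (SE 0.15 each), and its 3 dpi replicate 1, at -0.77, lay under the other 8 arrays, which were between -0.49 and -0.20. Their signs depend on the scaling, since with the array median the 1 dpi values were -0.28 for Jak1 and -0.29 for Tyk2. The dimmer of the 2 Tyk2 probes gave 0.36 and 0.43, which did not pass either.

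Socs1, the feedback inhibitor, was at -0.05, -0.05 and -0.17 in Ctrl, at 0.70, 0.64 and 0.70 at 1 dpi and at 0.27, 0.04 and 0.10 at 3 dpi. The 1 dpi arrays stood above all others and the 3 dpi arrays between them and Ctrl. The change was 1.71-fold at 1 dpi (log2 fold change 0.77, SE 0.08, limma adjusted p = 1.4e-04), past the p threshold and under 2-fold. At 3 dpi it was 0.23 over Ctrl (SE 0.08, limma adjusted p = 0.057), and from 1 to 3 dpi Socs1 fell by 0.55 (SE 0.08, limma adjusted p = 0.001). The 1 dpi change was 0.46 with the array median as the scale (limma adjusted p = 0.02), and the fall, -0.36, did not pass (limma adjusted p = 0.068). Unscaled intensities of Ctrl, 1010 to 1520, and 1 dpi, 1040 to 1120, overlapped.

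Other genes of the pathway were grouped by role. Beside the counts of these lists, 3623 of the 29410 genes tested were called higher at 1 dpi and 845 lower. At 3 dpi against Ctrl these were 2053 and 534, and from 1 to 3 dpi 1169 and 1419. Of 17 other interferon ligands 13 were tested, since Ifna6 and Ifnl2 were not found on the array and Ifna16 and Ifne did not pass the filter on dim probes. At 1 dpi 3 were called higher, Ifna11, Ifna1 and Ifna13, and 0 lower, with a median of 0.79. This median was 0.40 without Ctrl replicate 1, 0.48 with the array median as the scale and 0.39 with quantile normalization. The methods' two-group test called 1 of the 13 at 1 dpi. Ifna11 was at -5.68, -3.85 and -4.00 in Ctrl, at -2.07, -2.29 and -2.53 at 1 dpi and at -3.64, -3.55 and -3.27 at 3 dpi. Ctrl replicate 1 was the lowest array, and the 1 dpi arrays lay above all others. The change at 1 dpi was 2.21 (SE 0.45, limma adjusted p = 0.0042), and without Ctrl replicate 1 it was 1.63, still called, as it was with either other scaling. Ifna1 (1.16, SE 0.26, limma adjusted p = 0.0076) and Ifna13 (1.08) were not called without that array, at 0.84 and 0.65. Neither was called with the array median as the scale. Ifna13 was well above background on 2 of 3 Ctrl arrays, not on Ctrl replicate 1, so that no p is given for it. Interferon-α genes are near-identical copies of each other, so that the gene behind each of these probes is uncertain. At 3 dpi limma called 0 of the 13, 0 passed an unadjusted p under 0.05, and the methods' two-group test called 0.

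Siglech, a marker of plasmacytoid dendritic cells, which are known for making type I interferon, followed the order of Ifna11 in part. It was at 3.67, 4.80 and 4.84 in Ctrl, at 5.61, 5.50 and 5.44 at 1 dpi and at 4.69, 4.51 and 4.48 at 3 dpi, with Ctrl replicate 1 again the lowest array. Siglech was the brightest of the 9 tested dendritic cell markers of 10 listed, with Xcr1 not passing the filter on dim probes, and was called at 1 dpi (1.08, SE 0.29, limma adjusted p = 0.014). It was not called without Ctrl replicate 1 (0.70), with the array median as the scale (0.77) or with quantile normalization (0.77). Ccr9, another marker of these cells, went the other way at 1 dpi, by -0.96 (SE 0.13, limma adjusted p = 5.3e-04), and was called lower with both other scalings, at -1.27 and -1.20, as was 1 further gene of the list. Of the other markers in this list, Bst2, also an interferon target, was called higher at 1 dpi and Cd209a (-1.97) and Flt3 (-1.65) lower, and Flt3 (-2.14) was again lower at 3 dpi. The summed level of the list was 33.2, 46.6 and 47.3 in Ctrl, 73.8, 70.0 and 68.7 at 1 dpi and 48.1, 44.7 and 43.8 at 3 dpi. Siglech made up 43.5 to 48.9 of it at 1 dpi, while the median log2 fold change of the 9 genes was -0.33, and by adjusted p alone 5 of them were lower and 3 higher. Over all genes tested the median was 0.25, and 55.9% passed the adjusted p. The part of these cells in the ligand values was not tested.

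Of 4 other receptors and kinases, Ifnlr1, Il10rb, Jak2 and Jak3, 1 was called in the comparisons with Ctrl. Jak3, a kinase of lymphoid cytokine receptors, was 2.80-fold higher at 3 dpi (log2 fold change 1.49, SE 0.17, limma adjusted p = 3.9e-04). At 1 dpi limma called 0 of the 4, 3 passed an unadjusted p under 0.05 and the methods' two-group test called 0.

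Of 5 transcription factors, 3 were called higher at 1 dpi, with a median of 1.04. Irf1, a factor induced by interferon-γ, rose by 1.48 at 1 dpi (SE 0.07, limma adjusted p = 3.5e-06) and fell by 1.59 by 3 dpi, when it was at -0.11 against Ctrl (limma adjusted p = 0.25). Stat2, a part of the complex that carries the type I signal, rose by 1.04 (SE 0.07, limma adjusted p = 2.9e-05), and Irf9, another part of it, was not called, at 0.32 (SE 0.05, limma adjusted p = 0.0018). With the array median as the scale Irf9 was at 0.0051 (limma adjusted p = 0.98) and Stat2 (0.72) under 2-fold at 1 dpi, and Irf1 (1.16) was still called. At 3 dpi against Ctrl limma called 0 of the 5, 3 passed an unadjusted p under 0.05 and the methods' two-group test called 0.

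Of 12 other feedback and negative regulators, 2 were called higher at 1 dpi and 0 lower, with a median of -0.03. Of all genes tested 12.3% were called higher, with a median of 0.25. Usp18, which binds IFNAR2 and dampens the type I signal, was at -0.29, -0.26 and -0.27 in Ctrl, at 1.83, 1.82 and 1.79 at 1 dpi and at 0.43, 0.28 and 0.26 at 3 dpi. It rose 4.24-fold at 1 dpi (log2 fold change 2.09, SE 0.06, limma adjusted p = 5.8e-07) and fell by 1.49 by 3 dpi (SE 0.06, limma adjusted p = 8.6e-06). Cish, a relative of Socs1, rose by 1.00 at 1 dpi (SE 0.06, limma adjusted p = 1.4e-05) and was under 2-fold with the array median as the scale, at 0.69. At 3 dpi against Ctrl limma called 0 of the 12, 6 passed an unadjusted p under 0.05 and the methods' two-group test called 0.

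Of 19 interferon target genes, 17 were called higher at 1 dpi and 1 lower, with a median of 2.21 beside 0.25 for all genes. Ifit3, which binds viral RNA complexes, was at 0.12, 0.26 and 0.16 in Ctrl, at 4.01, 4.02 and 3.98 at 1 dpi and at 2.49, 2.31 and 2.29 at 3 dpi, and was 14.1-fold higher at 1 dpi (log2 fold change 3.82, SE 0.07, limma adjusted p = 1.1e-07). Cxcl10, a chemokine, rose by 3.20, Ifit1 by 3.06 and Rsad2, an antiviral enzyme, by 2.98. Ciita, the activator of MHC class II genes, was at 0.59, 0.38 and 0.39 in Ctrl and at -0.64, -0.65 and -0.67 at 1 dpi, where it fell by 1.11 (SE 0.07, limma adjusted p = 1.7e-05). The 1 remaining target was not called, at 0.10 (limma adjusted p = 0.34).

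At 3 dpi 9 targets were called higher than in Ctrl and 0 lower, with a median of 0.94, led by Ifit3 (2.18), Cxcl9 (1.85), Mx1 (1.77) and Cxcl10 (1.53). From 1 to 3 dpi 10 were called lower and 1, Ciita, higher, with a median of -1.15. Counts with the array median as the scale were 14 higher and 1 lower at 1 dpi, 8 and 0 at 3 dpi, and 1 and 9 between the time points. The falls were largest for Rsad2 (-2.30), Gbp2 (-1.87), Oasl1 (-1.67) and Cxcl10 (-1.66), each with a limma adjusted p of at most 7.9e-06.

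**Figure D4:**
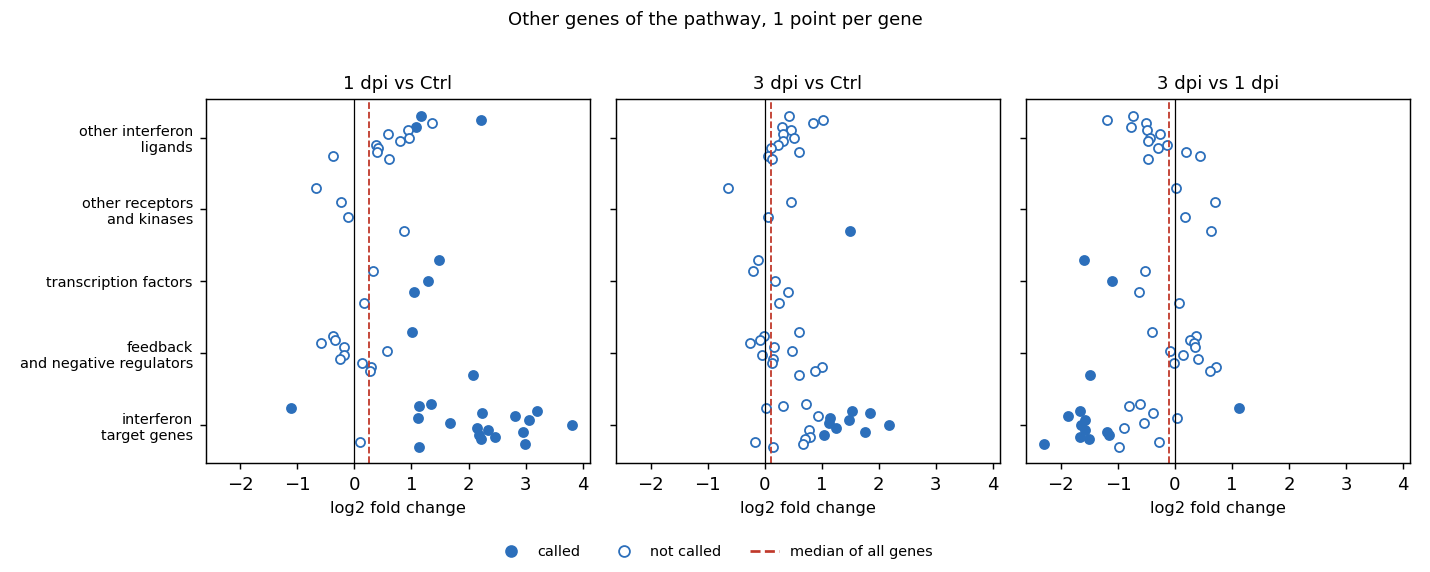
Log2 fold change of each tested gene of the other pathway lists (1 point per gene) in the 3 comparisons, filled where called, with the median of all genes as a dashed line. The target genes lie right of the line at 1 dpi except Ciita and 1 other gene, and left of it in 3 dpi vs 1 dpi, again except Ciita and 1 other.

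The label megakaryocyte was checked against 12 markers, all of them well above background in at least 1 group. Pf4, the brightest, was between 64.7 and 75.2 times the 75th percentile on all 9 arrays, and the list summed to 116 to 131 in Ctrl, 117 to 130 at 1 dpi and 135 to 138 at 3 dpi. With limma 0 of the 12 were called in each comparison, where 6 at 1 dpi, 4 at 3 dpi and 8 between the time points passed an unadjusted p under 0.05 and the methods' two-group test called 0. With the array median as the scale 1 of the 12 was called lower at 1 dpi and 2 higher between the time points.

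Markers of other marrow cells were also above background and moved. Macrophage and monocyte markers had 5 of 12 called higher at 1 dpi and 9 at 3 dpi, with Fcgr1 (2.48 and 2.71), Cd14 (1.66 at 1 dpi) and C1qb (2.51 at 3 dpi) among them and Ly6c2 the brightest. Stromal and endothelial markers had 8 and 9 of 14 called higher, with Cxcl12 (2.71), the brightest, and Col1a2 (2.36) leading at 1 dpi and Col3a1 (3.74) and Dcn (3.65) at 3 dpi, and the sum of the list went from at most 12.7 in Ctrl to 47.5 to 54.9 at 1 dpi and 91.0 to 101 at 3 dpi. B cell markers had 9 and 8 of 10 called lower, with Vpreb3 at -5.42 and -3.96 and Igll1 at -4.70 at 1 dpi, and Cd79b the brightest. Erythroid markers had 1 higher and 6 lower at 1 dpi and 8 lower at 3 dpi, with Ahsp at -7.62 and -2.63, Slc4a1 at -3.78 at 1 dpi and Alas2 at -2.26 at 3 dpi. Hba-a1, the brightest, was the gene called higher at 1 dpi (1.34), though not with quantile normalization, and was lower at 3 dpi (-1.48), and it carried the sum of this list from 117 to 136 in Ctrl to 227 to 285 at 1 dpi and 41.7 to 44.5 at 3 dpi. Neutrophil markers had 2 called higher at 1 dpi, S100a8 and S100a9, and 0 at 3 dpi, but 0 at 1 dpi with the array median as the scale or quantile normalization and only S100a8 without Ctrl replicate 1. Their sum, in which Mpo was brightest, was 1100 to 1160 in Ctrl, 1800 to 1960 at 1 dpi and 1090 to 1210 at 3 dpi. The part of these cells in the values of the members was not tested.

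**Figure D5:**
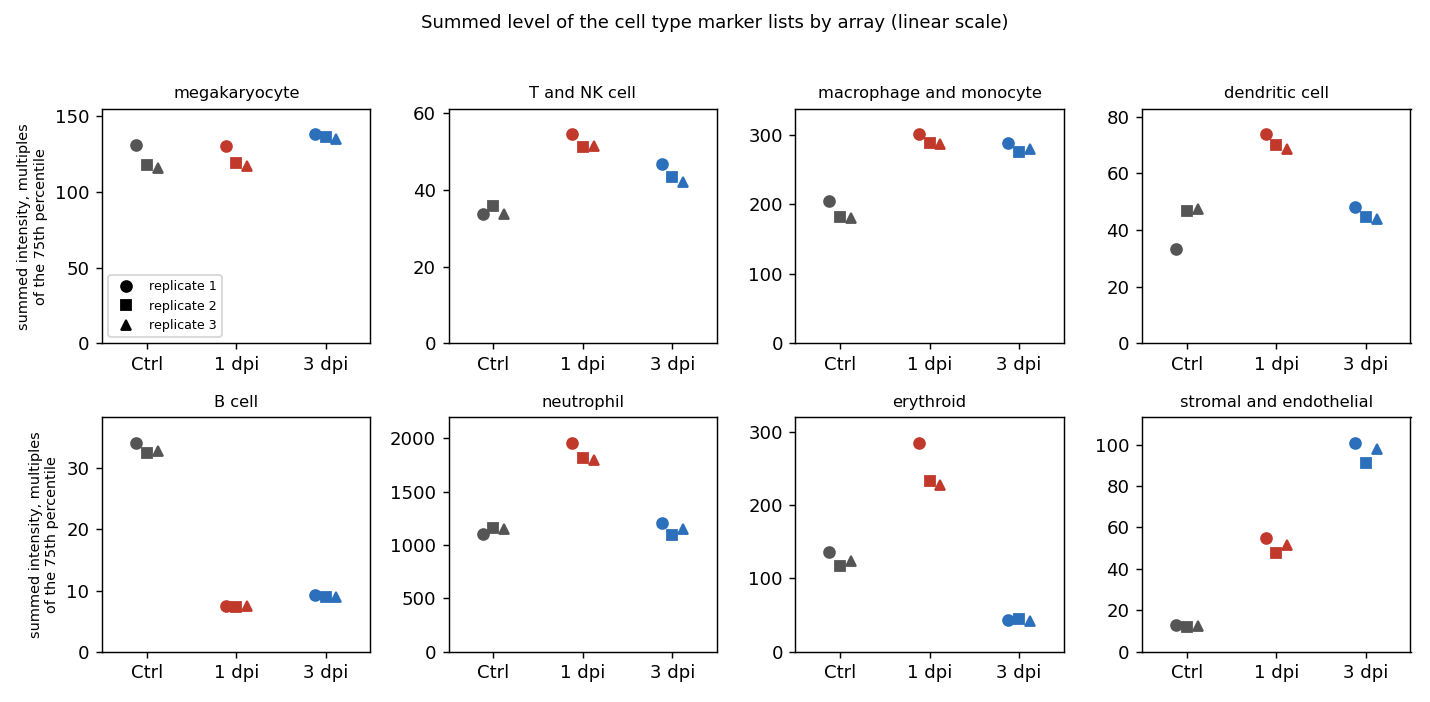
Summed intensity of each cell type marker list on each array (points, by replicate), in multiples of the array's 75th percentile on a linear axis from 0. The megakaryocyte sum lies between 116 and 138 on all 9 arrays, while T and NK cell, macrophage and stromal sums are higher and B cell sums lower after irradiation.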

How the data were processed

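RNA of mMKs was measured on 9 Agilent 1-colour arrays, 3 per group. The authors deposited spot intensities from Agilent Feature Extraction 10.7.1.1 (version from the submitters' processing notes), background-subtracted but not scaled between arrays, and a table of log2 values by gene name whose making is not stated, used only as an alternative. In that table each column's median lay between 5.79 and 5.87, its scale and centring stay unknown, and the 10 members were each tied to 1 probe within 0.0031, which for Ifnar2 and Tyk2 is not the probe that stands for the gene here. The methods describe an Affymetrix chip, and its labelling and scanning steps were not ascribed to the Agilent files.

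Intensities were log2 transformed and the 75th percentile of each array was subtracted. Of the probes, 32994 were named through RefSeq accessions (GRCm38.p6) and 23611 kept the name in the files. A probe was kept if every array of some group showed it well above background, and the probe with the highest mean stood for its gene. All 3 groups were fitted together with limma 3.58.1 in R 4.3.3 with Benjamini-Hochberg adjustment over 29410 genes, without a block. The script was checked on simulated data. The tables were read through data.table (version 1.17.8), and Python 3.11.15 with matplotlib 3.10.9 drew the figures. Named genes are the 10 members, up to 4 genes per pathway list and comparison that were called and changed most, Stat2, Irf9 and Usp18, for each marker list the brightest gene and the 2 called ones that changed most, and the 3 genes most like each called member. Bst2, Ccr9 and Ciita were named outside this rule, after their values were seen, and some genes that the rule takes are not shown. The members and lists were chosen with earlier results of these data known. Alternatives were other scalings, background corrections, filters, probe rules, blocks, tests and leaving out each array.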

Additional observations from a re-analysis of the deposited data

Results flagged for a closer look

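The change of Ifnb1 differed between the time points by the test of the difference itself, with 3 dpi lower than 1 dpi by a log2 difference of -2.18 (SE 0.17, limma adjusted p = 9.2e-05) and all 3 arrays of 3 dpi under all 3 of 1 dpi. With normexp and quantile normalization together this difference was -0.67, under 2-fold and not called. Groups of 3 arrays are too small for the rule on single arrays that stand apart.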

How the results depend on the processing

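Over 27 log2 fold changes of members and 591 values under alternatives, 543 kept their direction and side of the threshold, 4 lost the call, 12 gained it and 32 changed sign. Most of the 543 were of changes not called in the main fit. Most of the 12 came from dropping the minimum fold, which leaves the values as they were. The alternatives share arrays, so that the tally is no measure of certainty. The number of called members at 1 dpi was 2, and 1 with array-median scaling (without Ifng), 0 with normexp and quantile normalization, 1 with only probes above background on all 9 arrays (which drops Ifnb1) and 5 with no minimum fold change. At 3 dpi it was 1, and 4 with no minimum fold change, where the 5 and the 4 both include Ifnb1 with its dim Ctrl signals. Between the time points it was 1, and 2 with array-median scaling, 0 with normexp, 2 with no filter on dim probes (Ifna4, below background in both groups, joins), 0 with the 9-array filter and 6 with no minimum fold change. Of the member probes 2 were called at 1 dpi and 1 between the time points, which became 1 and 2 with array-median scaling and 0 and 0 with normexp. With normexp and quantile normalization together the fitted 1 dpi difference of Ifnb1 went from 2.94 to 0.75 and that between the time points from -2.18 to -0.67, against 2.41 and -2.01 with quantile normalization alone. The normexp offset of 50 exceeds 8 of 9 Ifnb1 intensities, and its share in this move was not tested apart. Ifna4 was above background on 0 of 9 arrays, and positive and significant, a weaker criterion, on 6 of 9. Other values with a changed sign, none of them called, were as follows, and the cause was not tested. With array-median scaling, they were 1 dpi vs Ctrl Ifngr1 -0.18, Jak1 -0.28, Tyk2 -0.29 and 3 dpi vs Ctrl Ifnar2 -0.087 and 3 dpi vs 1 dpi Jak1 0.13, Tyk2 0.14. With quantile normalization, they were 1 dpi vs Ctrl Ifngr1 -0.062, Jak1 -0.088 and 3 dpi vs Ctrl Ifnar2 -0.015. With normexp and quantile normalization, they were 1 dpi vs Ctrl Ifngr1 -0.080, Jak1 -0.062 and 3 dpi vs Ctrl Ifnar2 -0.019 and 3 dpi vs 1 dpi Jak1 0.0013. In the deposited table, they were 1 dpi vs Ctrl Ifngr1 -0.062, Jak1 -0.089, Tyk2 -0.12 and 3 dpi vs Ctrl Ifnar2 -0.031, Tyk2 0.19 and 3 dpi vs 1 dpi Tyk2 0.31. With slide as a block, they were 1 dpi vs Ctrl Ifngr2 0.0085 and 3 dpi vs Ctrl Jak1 0.013. With the mean of the kept probes, they were 3 dpi vs Ctrl Tyk2 0.20 and 3 dpi vs 1 dpi Tyk2 0.0085. The deposited values of Tyk2 and Ifnar2 come from their other probes. Over the fits without 1 array each, the ranges that crossed 0 were Ifngr2 in 1 dpi vs Ctrl -0.17 to 0.0085, Jak1 in 1 dpi vs Ctrl -9e-04 to 0.074, Tyk2 in 1 dpi vs Ctrl -0.012 to 0.086, Ifnar2 in 3 dpi vs Ctrl -0.023 to 0.12, Jak1 in 3 dpi vs Ctrl -0.062 to 0.013, Tyk2 in 3 dpi vs Ctrl -0.14 to 0.15 and Tyk2 in 3 dpi vs 1 dpi -0.16 to 0.13. Same-numbered arrays had correlations of their deviations between -0.107 and 0.128, which gives no sign that the numbers pair samples, and the fit with the replicate block called 2, 1 and 1 members. Ctrl replicate 1 alone fills slide 1, so that slide as a block equals leaving it out. Without it, an alternative chosen for the marker lists after seeing the data, 38, 41 and 25 marker genes were called against 41, 42 and 25. Signal near background limits Ifnb1 and leaves Ifna4 unmeasured.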
